A study of Mus musculus with 20 samples.

Results

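The genes followed were 6 enzyme genes of the 24411 in the table: the alcohol dehydrogenases *Adh1*, *Adh5* and *Adh7*, the aldehyde dehydrogenases *Aldh2* and *Aldh3a1*, and transketolase, *Tkt*. They were chosen by gene symbol, and all 6 passed the filter on low values that left 18807 genes for testing. The data were bulk RNA-seq of the RPE–choroid, the outer eyecup that remains after the anterior segment, vitreous and neural retina of the mouse eye are taken away. The mice were C57BL/6 and either wild-type (WT) or *Stra6*-/-, which lack the receptor that takes up retinol from its carrier protein in blood. All mice were weaned from dams on standard chow at about 28 days and then received, for 12 weeks, a vitamin A sufficient (VAS) diet with 4 IU/g or a vitamin A deficient (VAD) diet with 0 IU/g. The 4 groups, VAS WT, VAD WT, VAS *Stra6*-/- and VAD *Stra6*-/-, had 5 libraries each, and by the paper's account each library pooled both eyecups of 1 mouse. The WT mice were purchased and the *Stra6*-/- mice were bred in house, so that the source of the animals and the genotype cannot be told apart.

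Alcohol dehydrogenases oxidize alcohols to aldehydes with NAD as the cofactor, and retinol is among the substrates of ADH1 and ADH7. ADH5 is the glutathione-dependent formaldehyde dehydrogenase that almost every cell carries. Aldehyde dehydrogenases take the next step, from aldehyde to acid: ALDH2 works in mitochondria and clears acetaldehyde and lipid aldehydes. ALDH3A1 and transketolase are the enzyme crystallins of the mouse cornea, that is, metabolic enzymes that the corneal epithelium accumulates as major soluble proteins. ADH7 is an abundant enzyme of surface epithelia, the corneal epithelium included. Transketolase itself joins the pentose phosphate pathway to glycolysis.

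*Adh7*, *Adh1* and *Adh5* lie in 1 cluster on mouse chromosome 3. In GRCm38 the 6 protein-coding *Adh* genes of this cluster span 237.74 kb, are all on the plus strand, and run in the order *Adh7* (chr3:138217760-138233382), *Adh1* (chr3:138260991-138290698), *Adh6a*, *Adh6b*, *Adh4* and *Adh5* (chr3:138443093-138455499). *Aldh3a1* is on the plus strand at chr11:61207537-61218421, *Tkt* on the plus strand at chr14:30548359-30574720 and *Aldh2* on the minus strand at chr5:121566027-121593824. The exons of *Adh7* share 108 bp with the antisense gene *0610031O16Rik*, whose highest value in any library was 1.87, and those of *Adh1* and *Aldh2* share 136 bp and 130 bp with genes outside the table. Whether the counting used strand was not given in the sources used here, so reads from these overlaps cannot be told apart.

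RefSeq promoter entries of GRCm38.p6 matched 4 of the 6 members. The 250 bases upstream of a RefSeq start are shown for the 3 members of the cluster, since *Adh7* and *Adh1* fell and *Adh5* rose in the same libraries. Capitals mark matches on either strand to 3 promoter motifs, the TATA box searched as TATAAA, the CCAAT box searched by those letters, and the GC box searched as GGGCGG. The windows cover chr3:138217523-138217772, chr3:138277335-138277584 and chr3:138442843-138443092, all on the plus strand, and the *Adh1* window belongs to a RefSeq start inside the GENCODE gene. For *Adh5* the window shown is that of the RefSeq start nearest the GENCODE start; a second RefSeq entry of the gene, further upstream, is described but not printed.
Adh7: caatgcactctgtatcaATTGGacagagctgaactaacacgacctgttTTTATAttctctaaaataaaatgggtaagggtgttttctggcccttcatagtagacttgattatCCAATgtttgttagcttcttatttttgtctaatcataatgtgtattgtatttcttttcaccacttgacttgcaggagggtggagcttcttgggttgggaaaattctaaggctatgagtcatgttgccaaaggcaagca
Adh1: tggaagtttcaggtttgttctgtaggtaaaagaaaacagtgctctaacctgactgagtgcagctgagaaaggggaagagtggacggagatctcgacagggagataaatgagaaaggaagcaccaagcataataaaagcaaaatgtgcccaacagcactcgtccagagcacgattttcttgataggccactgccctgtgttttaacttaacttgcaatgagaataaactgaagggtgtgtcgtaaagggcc
Adh5: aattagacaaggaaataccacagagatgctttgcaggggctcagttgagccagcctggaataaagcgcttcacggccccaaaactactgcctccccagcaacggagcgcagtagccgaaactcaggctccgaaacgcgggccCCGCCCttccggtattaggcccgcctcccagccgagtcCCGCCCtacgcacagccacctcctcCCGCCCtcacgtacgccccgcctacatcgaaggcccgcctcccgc

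The *Adh5* window shown was the richest of the 3 in CG: it held 21 CG dinucleotides at 63.6% GC and 3 GC box matches, none overlapping another motif. The second *Adh5* window, chr3:138436950-138437199, held 2 CG at 45.2% GC, 1 TATA box match and no GC box match. The contrast with *Adh7* and *Adh1* thus belongs to the first window. It does not extend to *Tkt*, the fourth member with an entry, which fell in the libraries where *Adh5* rose. The *Tkt* window, not printed, held 14 CG at 59.6% GC and 3 GC box matches, and its RefSeq start lies inside the GENCODE gene. The *Adh7* window held 1 CG at 38.0% GC, 1 TATA box match and 2 CCAAT box matches. The *Adh1* window held 5 CG at 44.8% GC and no match to these motifs. Over 32536 promoter windows of the same length, the median was 6 CG and 52.4% GC, and 12.3% held the TATA box letters, 33.8% the CCAAT box letters and 33.0% the GC box letters. AGGTCA, a half-site of nuclear receptors, and TGACNNNGC, the core of the antioxidant response element, were searched on both strands in the same windows and matched none of the 3, against 14.0% and 10.2% of all windows. These matches describe letters and were not tested for binding.

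Library depth ranged from 13331903 to 21878614 reads. Before any result, the labels were compared with the transcripts. In normalized units *Stra6* stood at 2591 ± 149 (SD, n = 5) for VAS WT mice, at 629 ± 49.8 for VAS *Stra6*-/- mice and at 2163 ± 154 in the group labelled VAD *Stra6*-/-. That group did not have the low level of VAS *Stra6*-/- and is called "the libraries labelled VAD *Stra6*-/-" throughout. The libraries labelled VAD WT had 986 ± 415: replicates 2 and 4 held 1340 to 1529, and replicates 1, 3 and 5 held 669 to 697, near the VAS *Stra6*-/- range of 564 to 694. STRA6 is a protein of the RPE, and the summed level of 8 RPE genes differed between the groups as well. Its mean was 107675 in VAS WT, 37658 in VAD WT, 110427 in VAS *Stra6*-/- and 485612 in the libraries labelled VAD *Stra6*-/-. The *Stra6* levels alone are not adjusted for RPE content, so they cannot decide whether a label is right. Next to VAS WT, the libraries labelled VAD *Stra6*-/- had a lower mean of *Stra6* (2163 against 2591) at a higher mean RPE sum. Next to VAS *Stra6*-/-, VAD WT had a higher mean of *Stra6* (986 against 629) at a lower mean RPE sum. *Stra6* relative to the RPE genes was not tested. "VAD WT" below names a label, and directions drawn from it rest on that label. The 5 libraries labelled VAD *Stra6*-/- held both *Xist* (3570 to 4280) and the Y-linked *Ddx3y* (741 to 970). Both transcripts in every library of that group go against 1 mouse per library. If those libraries share material, an SD, SE or p with n = 5 does not measure the spread between mice. Whether they do was not tested. VAS WT libraries held *Ddx3y* (981 to 1193) and little *Xist*, at most 38.4, and VAS *Stra6*-/- libraries held *Xist* (15320 to 18052) and *Ddx3y* of at most 1.02, so sex-linked transcripts and genotype cannot be told apart. Within VAD WT, replicates 2 and 4 also stood apart from replicates 1, 3 and 5 in sex-linked transcripts. *Xist* was 10912 to 11767 against 174 to 234, and *Ddx3y* was 75.2 to 80.5 against 1041 to 1133. Both sets thus held some of each transcript. If libraries of VAD WT or of another group share material, the limit on SD, SE and p holds there too. This was not tested for any group. In comparisons with VAD WT, the changes of the members and the counts of the gene lists are given with all 5 libraries and again without replicates 2 and 4, and levels relative to the cornea are given again where a call changed.

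Markers of the corneal epithelium, a tissue outside the labelled RPE–choroid, moved with these groups. The summed level of 12 such genes (*Krt12*, *Krt5* and others) ranged from 414476 to 519384 in VAS WT, 671255 to 696552 in VAS *Stra6*-/-, 294662 to 938164 in VAD WT and 16416 to 20446 in the libraries labelled VAD *Stra6*-/-. None of the 12 was at 0 in any group. The sum of 8 RPE genes ran the other way in the last group, from 464344 to 505088, against 107333 to 112836 in VAS *Stra6*-/-, 101396 to 117405 in VAS WT and 27572 to 52015 in VAD WT. Their part in the results below was not tested, except where members are set against the corneal list itself. In bulk tissue, fewer cells of a type and less RNA per cell cannot be told apart.

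**Figure D1:**
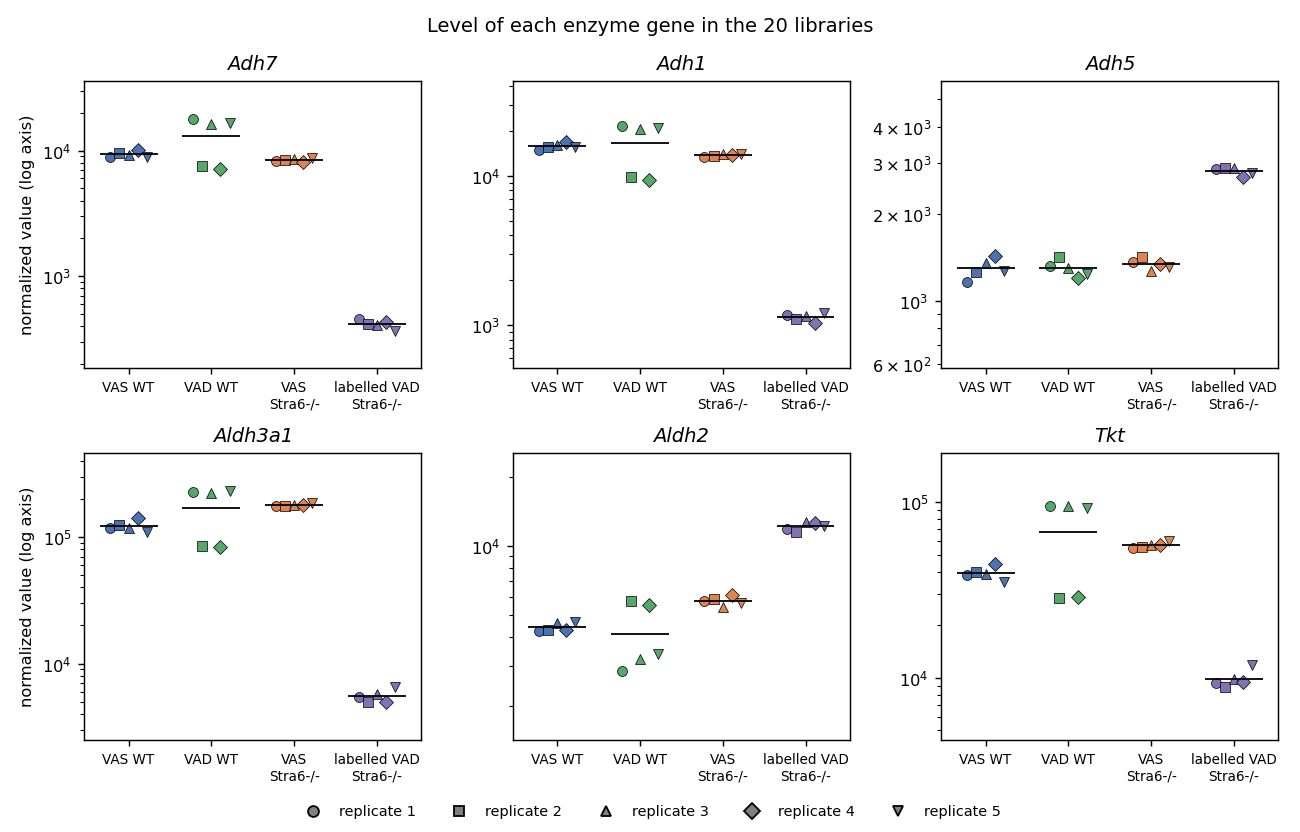
Normalized value (log axis) of each of the 6 genes in the 20 libraries, by group; symbols mark replicates and the line is the mean of 5. *Adh7*, *Adh1*, *Aldh3a1* and *Tkt* are lowest, and *Adh5* and *Aldh2* highest, in the libraries labelled VAD *Stra6*-/-. Replicates 2 and 4 of VAD WT sit apart for every gene except *Adh5*.

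*Aldh3a1* was among the most abundant transcripts of the eyecup libraries in 3 of the 4 groups and fell 32.7-fold against VAS *Stra6*-/- in the libraries labelled VAD *Stra6*-/-. Its normalized values were 118058, 124285, 118579, 142162 and 110266 in VAS WT replicates 1 to 5 and 176893, 176015, 179567, 178331 and 183979 in VAS *Stra6*-/-. They were 227465, 84401, 223428, 82630 and 230048 in VAD WT and 5407, 4936, 5744, 4951 and 6494 in the libraries labelled VAD *Stra6*-/-. All 5 values of the last group lay below every value of the other 15 libraries. Ranked by mean value among all genes, *Aldh3a1* was number 6 in VAS WT, 4 in VAD WT, 4 in VAS *Stra6*-/- and 460 in the libraries labelled VAD *Stra6*-/-.

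*Tkt*, the other corneal enzyme crystallin, was lowest in the same group, with a smaller span. Its values were 38390, 39908, 38834, 43947 and 35090 in VAS WT and 54440, 55426, 56793, 56426 and 59956 in VAS *Stra6*-/-. They were 94282, 28453, 93899, 28801 and 91447 in VAD WT and 9301, 8775, 9844, 9481 and 11812 in the libraries labelled VAD *Stra6*-/-. The last group again lay below all others, and the 5 VAS *Stra6*-/- values lay above the 5 VAS WT values. Together, *Aldh3a1* and *Tkt* took 0.954% ± 0.0800 (SD, n = 5) of all reads in VAS WT, 1.28% ± 0.0247 in VAS *Stra6*-/-, 1.30% ± 0.548 in VAD WT (1.70% ± 0.0193 without replicates 2 and 4, n = 3) and 0.0852% ± 0.00835 in the libraries labelled VAD *Stra6*-/-.

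*Adh7* encodes the class IV enzyme, known for its activity on retinol. It measured 8876, 9641, 9214, 10074 and 8852 in VAS WT and 8233, 8419, 8504, 8183 and 8754 in VAS *Stra6*-/-. It measured 17917, 7521, 16244, 7200 and 16495 in VAD WT and 453, 417, 408, 429 and 369 in the libraries labelled VAD *Stra6*-/-. The VAS groups were close, with the VAS *Stra6*-/- values just under the VAS WT values without overlap, and the last group lay far below both, 20.3-fold lower than VAS *Stra6*-/-.

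*Adh1* encodes the class I enzyme, best known from liver, where it oxidizes ethanol and retinol. Its values were 15004, 15728, 16043, 16871 and 15516 in VAS WT and 13393, 13492, 14064, 13776 and 13931 in VAS *Stra6*-/-. They were 21609, 9845, 20772, 9425 and 20962 in VAD WT and 1175, 1091, 1151, 1025 and 1207 in the libraries labelled VAD *Stra6*-/-. Its order of groups was that of *Adh7*, with the lowest levels in the libraries labelled VAD *Stra6*-/-.

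*Adh5*, the class III enzyme, held nearly 1 level in 3 groups. Its values were 1162, 1252, 1356, 1425 and 1271 in VAS WT, and 1366, 1412, 1268, 1341 and 1309 in VAS *Stra6*-/-. They were 1323, 1420, 1295, 1198 and 1235 in VAD WT and 2867, 2897, 2880, 2678 and 2772 in the libraries labelled VAD *Stra6*-/-. The 15 libraries of the first 3 groups overlapped throughout, VAD WT replicates 2 and 4 included, and the last group stood above them all.

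*Aldh2* moved the same way as *Adh5* in the last group. Its values were 4254, 4307, 4596, 4274 and 4674 in VAS WT and 5754, 5853, 5389, 6104 and 5630 in VAS *Stra6*-/-. They were 2832, 5724, 3212, 5494 and 3376 in VAD WT and 11802, 11524, 12699, 12630 and 12187 in the libraries labelled VAD *Stra6*-/-. Here VAD WT replicates 2 and 4 were the higher libraries of their group, the reverse of the pattern in *Aldh3a1*, *Tkt*, *Adh7* and *Adh1*.

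Levels can be compared between genes only per length. Per kb of exon, the mean value in VAS WT was 63167 for *Aldh3a1*, 7090 for *Adh1*, 5334 for *Tkt*, 2464 for *Adh7*, 862 for *Aldh2* and 239 for *Adh5*. In the libraries labelled VAD *Stra6*-/- the order was *Aldh3a1* at 2836, *Aldh2* at 2374, *Tkt* at 1338, *Adh5* at 521, *Adh1* at 506 and *Adh7* at 110. *Aldh2* thus stood second from the top per kb in those libraries and second from the bottom in VAS WT.

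The first comparison asked how the VAD diet changed *Stra6*-/- eyecups. *Aldh3a1*, *Adh7*, *Adh1* and *Tkt* fell and *Adh5* and *Aldh2* rose in the libraries labelled VAD *Stra6*-/- against VAS *Stra6*-/-. All 6 passed limma's test, a moderated linear model fitted over all genes, at a Benjamini-Hochberg adjusted p under 0.05. Among all 18807 genes 53.2% passed it, 24.4% higher and 28.8% lower, so passing is not particular to the 6 enzymes. The ranges did not overlap for any of the 6, as for 51.3% of all genes.

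The sizes were large for the 4 enzymes that fell. On the log2(value + 1) scale *Aldh3a1* fell by 5.03 ± 0.25 (SE, adjusted p = 2.97e-13, limma), a 32.7-fold decrease. *Adh7* fell by 4.34 ± 0.19 (adjusted p = 4.56e-14, limma), and *Adh1* fell by 3.60 ± 0.18 (adjusted p = 4.08e-13, limma). *Tkt* fell by 2.53 ± 0.28 (adjusted p = 9.29e-08, limma), or 5.78-fold. All 4 were beyond a log2 fold change of 2, as were 7.4% of all genes in the lower direction. *Adh5* rose by 1.07 ± 0.06 (adjusted p = 4.41e-12, limma) and *Aldh2* by 1.08 ± 0.14 (adjusted p = 1.27e-06, limma), both about 2.1-fold. All 12 corneal epithelium genes fell in this comparison (median −5.17), 7 of 8 RPE genes rose (median 2.45) and all 6 keratocyte genes rose (median 1.79), beside a median of −0.07 over all genes. All 6 conjunctival epithelium genes fell too (median −4.31).

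**Figure D2:**
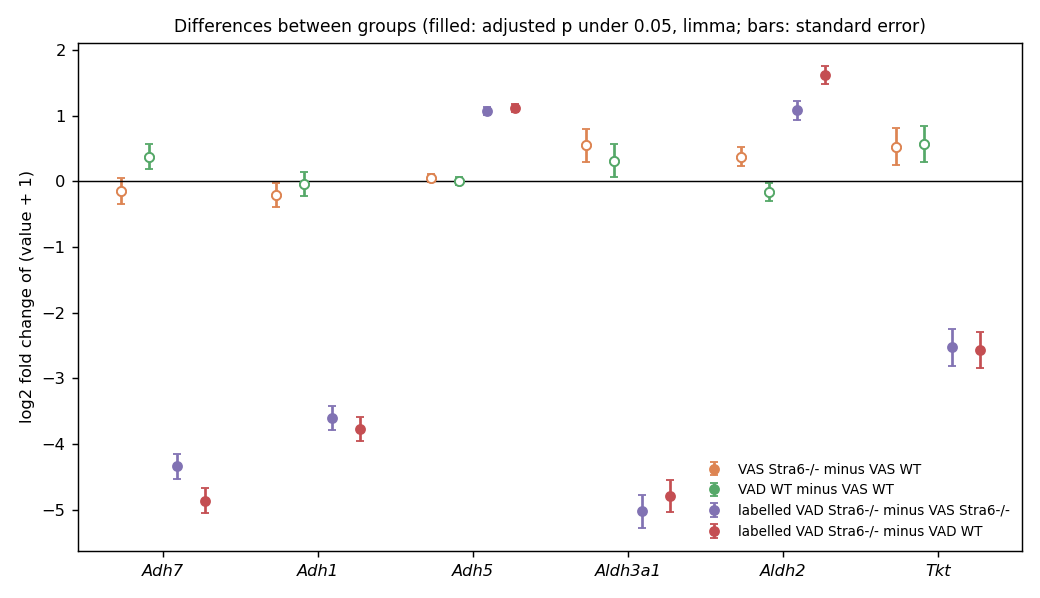
Log2 fold change of (value + 1) for the 6 genes in 4 comparisons, with limma's standard error; filled points passed an adjusted p under 0.05. The 2 comparisons of the libraries labelled VAD *Stra6*-/- are filled for every gene, with *Aldh3a1* at −5.03 and −4.80 and *Adh5* at 1.07 and 1.12, and the other 2 comparisons are open for every gene.

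The second comparison set the groups labelled by genotype against each other on the VAD diet. In *Stra6* itself, not adjusted for RPE content, the libraries labelled VAD WT were the lower ones, and also in the RPE sum. The comparison shares its first group with the comparison above. In the libraries labelled VAD *Stra6*-/- against VAD WT, *Adh7* fell by 4.87 ± 0.19 (adjusted p = 9.99e-15, limma), *Aldh3a1* fell by 4.80 ± 0.25, *Adh1* fell by 3.77 ± 0.18 and *Tkt* fell by 2.57 ± 0.28. *Aldh2* rose by 1.62 ± 0.14, or 3.08-fold, and *Adh5* by 1.12 ± 0.06. The highest adjusted p of the 6 was 7.49e-08, for *Tkt* (limma). Over all genes 55.9% passed, 26.2% higher and 29.6% lower, and 6.86% were lower beyond a log2 fold change of 2, as *Adh7*, *Aldh3a1*, *Adh1* and *Tkt* were. No range overlapped for the 6, against 37.4% of all genes without overlap. All 12 corneal epithelium genes fell here as well (median −4.82) and 7 of 8 RPE genes rose (median 3.42). All 6 skeletal muscle genes rose (median 1.83), 5 of 6 rod photoreceptor genes fell (median −0.97), and of 6 keratocyte genes 4 rose and 2 fell (median 1.27). All 6 conjunctival epithelium genes fell (median −3.06), and 5 did without VAD WT replicates 2 and 4 (median −3.42). Without VAD WT replicates 2 and 4 all 6 members still passed, in the same directions, with 63.1% of all genes passing. *Aldh3a1* then fell by 5.37, *Adh7* fell by 5.34, *Adh1* fell by 4.23 and *Tkt* fell by 3.25, while *Aldh2* rose by 1.96 and *Adh5* by 1.13. In the same setting all 12 corneal genes again fell (median −5.35) and 7 of 8 RPE genes rose (median 3.82), the muscle genes that rose numbered 6, the keratocyte genes again 4 higher and 2 lower, and the rod genes 1 higher and 5 lower. The interaction of genotype and diet, as labelled, passed for all 6 as well, beside 44.2% of all genes, and without those 2 libraries it passed for all 6 beside 54.7%.

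The third comparison asked what loss of *Stra6* changed on the VAS diet. None of the 6 passed limma's test, nor edgeR's quasi-likelihood test, although 2 had an unadjusted p under 0.05, while 26.6% of all genes passed. *Aldh3a1* was 0.55 ± 0.25 higher on the log2 scale in VAS *Stra6*-/- (adjusted p = 0.113, limma), *Tkt* 0.53 ± 0.28 (adjusted p = 0.172, limma) and *Aldh2* 0.38 ± 0.14 (adjusted p = 0.0539, limma). The differences were −0.20 ± 0.18 for *Adh1*, −0.15 ± 0.19 for *Adh7* and 0.05 ± 0.06 for *Adh5*. Even so, the 5 values of each group did not overlap for 5 of the 6, all but *Adh5*, beside 32.5% of all genes. The 4 groups share 1 estimate of the spread, to which VAD WT replicates 2 and 4 contribute. With only the 2 VAS groups in the fit, the 5 non-overlapping members passed, with adjusted p from 2.84e-05 for *Tkt* to 0.0111 for *Adh7* (limma), and 43.6% of all genes did. Without VAD WT replicates 2 and 4, the same 5 passed and 40% of all genes did. *Aldh2* also passed under DESeq2 on recovered reads (adjusted p = 0.0464), as did 29% of all genes.

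Corneal genes again moved in this comparison. Of the 12 corneal epithelium genes 4 rose and none fell, with a median of 0.39 against 0.02 over all genes, and *Krt12*, the cornea-specific keratin, was 0.76 higher without passing (adjusted p = 0.0705, limma). Lists of other tissues moved as well: all 6 skeletal muscle genes rose (median 1.38), 4 of 6 lens genes fell (median −1.84) and 3 of 6 conjunctival epithelium genes fell (median −0.25). The part of these tissues in the members' values was not tested.

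The fourth comparison asked what the VAD diet changed in mice labelled WT. None of the 6 passed limma's test or edgeR's quasi-likelihood test and none had an unadjusted p under 0.05, while 8.78% of all genes passed. The log2 differences were 0.57 ± 0.28 for *Tkt*, 0.38 ± 0.19 for *Adh7*, 0.32 ± 0.25 for *Aldh3a1*, −0.04 ± 0.18 for *Adh1*, 0.00 ± 0.06 for *Adh5* and −0.16 ± 0.14 for *Aldh2*. The ranges of the groups overlapped for all 6, beside 6.34% of all genes without overlap. VAD WT was split instead: the mean of replicates 1, 3 and 5 over that of replicates 2 and 4 was 3.26 for *Tkt*, 2.72 for *Aldh3a1*, 2.29 for *Adh7*, 2.19 for *Adh1*, 0.981 for *Adh5* and 0.560 for *Aldh2*. For the 12 corneal epithelium genes summed, the same ratio was 3.12, and for *Rpe65*, the RPE isomerase, it was 0.353. The corneal genes did not split alike: the ratio was 3.40 for *Krt12*, 2.78 for *Krt5* and 1.25 for *Krt14*. For each of the 6 members except *Adh5*, 1 set of replicates lay above and the other below the VAS WT range. Without replicates 2 and 4, *Tkt* rose by 1.25 (adjusted p = 4.72e-11, limma), *Aldh3a1* by 0.89, *Adh7* by 0.86 and *Adh1* by 0.42, and *Aldh2* fell by 0.50, with 37.9% of all genes passing. DESeq2 on recovered reads, with all VAD WT libraries, passed 1 of the 6, *Tkt* (adjusted p = 0.0219), and 11.4% of all genes. With all libraries 3 of 6 skeletal muscle genes and 3 of 6 lens genes fell (medians −1.11 and −1.06). So did 7 of 8 RPE genes (median −1.41) and 4 of 6 conjunctival epithelium genes (median −1.03), while 4 keratocyte genes rose and 1 fell (median 0.71). Without replicates 2 and 4, all 6 muscle genes and 2 lens genes fell, and 9 of the 12 corneal epithelium genes rose and 1 fell (median 0.70). In that setting 7 RPE genes (median −1.75) and 6 choroidal endothelium genes (median −0.76) fell. Of the conjunctival genes 5 fell and 1 rose, and the keratocyte counts were unchanged.

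Since *Adh7*, *Aldh3a1* and *Tkt* are abundant in the corneal epithelium by their known biology, each was also set against that tissue's genes within every library. This does not make the cornea their only source. The measure was log2(value + 1) of the member minus the mean log2(value + 1) of the 12 corneal epithelium genes. *Tkt* stood 1.60 ± 0.0292 (SD, n = 5) above the list mean in VAS WT, 1.62 ± 0.0443 in VAS *Stra6*-/-, 1.98 ± 0.153 in VAD WT and 4.38 ± 0.195 in the libraries labelled VAD *Stra6*-/-. *Tkt* therefore fell by less than the list, with a difference of 2.76 against VAS *Stra6*-/- and 2.40 against VAD WT (both adjusted p = 0.0159, exact permutation test, two-sided, adjusted over 12 tests). The smallest unadjusted p that 5 against 5 libraries allow is 0.00794, and both had it. Any gene that other cells of the tissue also express would differ in this direction when the list falls, so the sign is not particular to *Tkt*. Which cells held *Tkt* was not tested. Against *Krt12* alone or *Krt5* and *Krt14* as the reference, the *Tkt* difference kept its sign in both comparisons. Without VAD WT replicates 2 and 4 it was 2.29 against VAD WT with an adjusted p of 0.0612 by the exact permutation test, whose reach is limited by 3 remaining libraries.

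**Figure D3:**
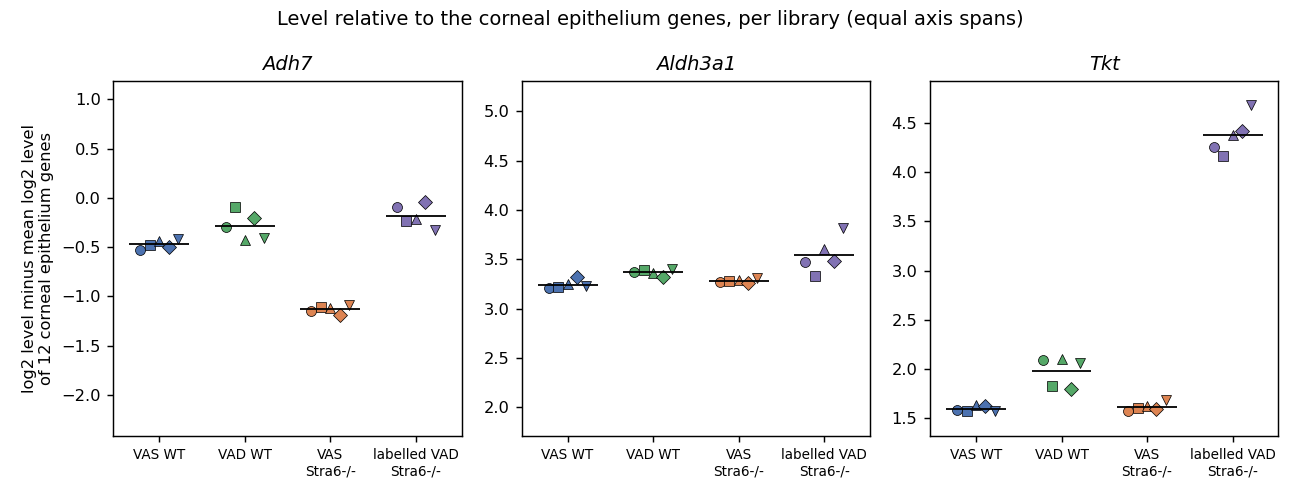
Level of *Adh7*, *Aldh3a1* and *Tkt* relative to 12 corneal epithelium genes in each library (log2 level minus the mean log2 level of the list), on axes of equal span; lines are means of 5. *Aldh3a1* stays between means of 3.24 and 3.54, while *Tkt* stands at 4.38 in the libraries labelled VAD *Stra6*-/- against 1.60 to 1.98 elsewhere.

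*Aldh3a1* moved almost as the list did. Its distance above the list mean was 3.24 ± 0.0460 in VAS WT, 3.28 ± 0.0181 in VAS *Stra6*-/-, 3.37 ± 0.0329 in VAD WT and 3.54 ± 0.179 in the libraries labelled VAD *Stra6*-/-. The last group was 0.26 above VAS *Stra6*-/- (adjusted p = 0.0159, exact permutation test) and 0.17 above VAD WT (adjusted p = 0.0529, exact permutation test). The sign depended on the reference: against *Krt5* and *Krt14* these differences were −0.69 and −1.18, and against *Krt12* alone 1.59 and 1.61. No direction for *Aldh3a1* relative to the cornea can be read from these values.

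With the 12-gene list as the reference, *Adh7* was the 1 member of the 3 whose relative level passed between the VAS groups. Against *Krt12* alone, *Aldh3a1* (−0.21) and *Tkt* (−0.23) passed there too (both adjusted p = 0.0106, exact permutation test). It lay −0.47 ± 0.0456 from the list mean in VAS WT and −1.13 ± 0.0398 in VAS *Stra6*-/-, a difference of −0.66 (adjusted p = 0.0159, exact permutation test) that kept its sign with each reference, between −0.91 and −0.66. In VAD WT it lay at −0.29 ± 0.139 and in the libraries labelled VAD *Stra6*-/- at −0.18 ± 0.111. The last group stood 0.95 above VAS *Stra6*-/- (adjusted p = 0.0159, exact permutation test), which shrank to 0.00 against *Krt5* and *Krt14*. Against VAD WT the difference was 0.10 (adjusted p = 0.268, exact permutation test) and turned to −1.25 against *Krt5* and *Krt14*.

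The neighbours of these genes in the cluster were examined next. *Adh6a*, a class V gene between *Adh1* and *Adh4*, measured 824 ± 79.7 (SD, n = 5) for the VAS WT group, 651 ± 20.2 in VAS *Stra6*-/-, 457 ± 178 in VAD WT and 27.0 ± 9.66 in the libraries labelled VAD *Stra6*-/-. It fell by 4.61 against VAS *Stra6*-/- (adjusted p = 6.93e-13, limma) and by 3.99 against VAD WT (adjusted p = 7.99e-12, limma), or fell by 4.45 without VAD WT replicates 2 and 4. With all libraries, and unlike *Adh1* and *Adh7*, it also passed in VAD WT against VAS WT, where it fell by 0.95 (adjusted p = 0.0149, limma). Without replicates 2 and 4 it fell by 0.49 (adjusted p = 0.0390, limma). In that setting *Adh1* and *Adh7* passed too but rose, by 0.42 and 0.86 (adjusted p = 8.04e-07 and 2.91e-10, limma). The difference between these genes was not tested. *Adh4*, the class II enzyme of liver, had 2 reads over all 20 libraries and was not tested, and *Adh6b* had no row in the table. The pseudogene *Adh6-ps1* had 3 reads in all. The cluster thus held 3 genes that fell, *Adh7*, *Adh1* and *Adh6a*, next to 1 that rose, *Adh5*, at its far end. *Adhfe1*, an iron-dependent alcohol dehydrogenase outside the cluster, rose by 1.18 and 1.05 in the same 2 comparisons.

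**Figure D4:**
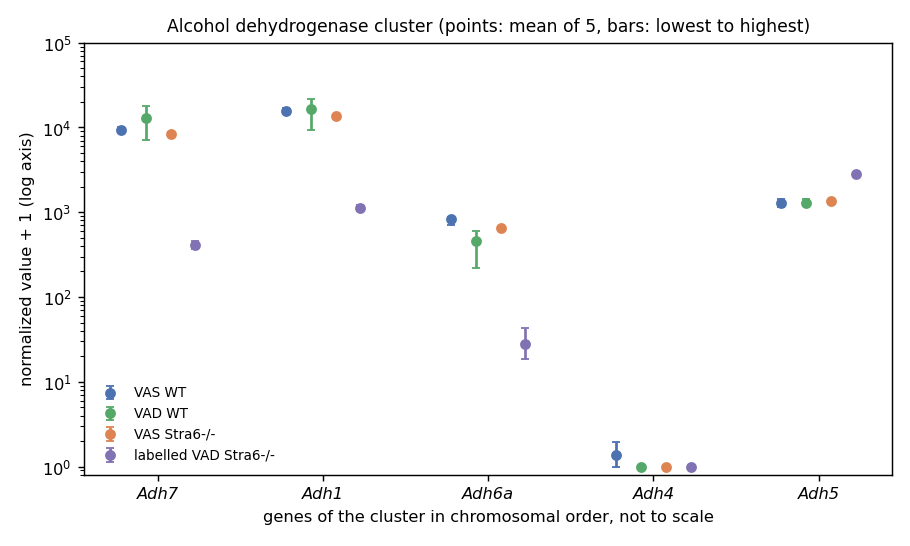
Normalized value plus 1 (log axis) of the tabulated protein-coding genes of the chromosome 3 cluster in chromosomal order, as the mean of 5 libraries with bars from the lowest to the highest. In the libraries labelled VAD *Stra6*-/- *Adh7*, *Adh1* and *Adh6a* are the lowest of the 4 groups and *Adh5*, at 2819, is the highest.

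Of the other aldehyde dehydrogenases, 18 on a fixed list were tested; *Aldh3b3*, with 16 reads over all libraries, was outside the list. Against VAS *Stra6*-/-, 9 rose and 3 fell in the libraries labelled VAD *Stra6*-/- (median 0.44), and against VAD WT 9 rose and 5 fell (median 0.44), or 10 and 6 without VAD WT replicates 2 and 4 (median 0.57). Those that fell in both comparisons were *Aldh3b2*, the closest to *Aldh3a1* in size of change at −4.82 and −4.71, *Aldh1a3*, a retinaldehyde dehydrogenase, at −4.23 and −2.91, and the scarce *Aldh8a1* at −3.03 and −2.38, with a mean of 8.70 in VAS *Stra6*-/-. Those that rose with *Aldh2* included *Aldh1l1*, the cytosolic formyltetrahydrofolate dehydrogenase, at 1.41 and 1.77, *Aldh7a1*, which acts in lysine breakdown, at 1.24 and 1.40, and *Aldh3a2*, the fatty aldehyde dehydrogenase, at 1.03 and 1.08. In VAS *Stra6*-/- against VAS WT, 3 of the 18 rose and none fell, with *Aldh1a3* up by 0.88 (adjusted p = 8.47e-07, limma). In VAD WT against VAS WT, 2 rose, *Aldh1a1* by 0.70 and *Aldh1a2* by 0.62, and *Aldh1a3* fell by 0.44. Without replicates 2 and 4 of VAD WT, 6 of the 18 rose and 3 fell, with *Aldh1a1* up by 1.05, *Aldh1a2* by 0.25 and *Aldh1a3* down at −0.27.

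**Figure D5:**
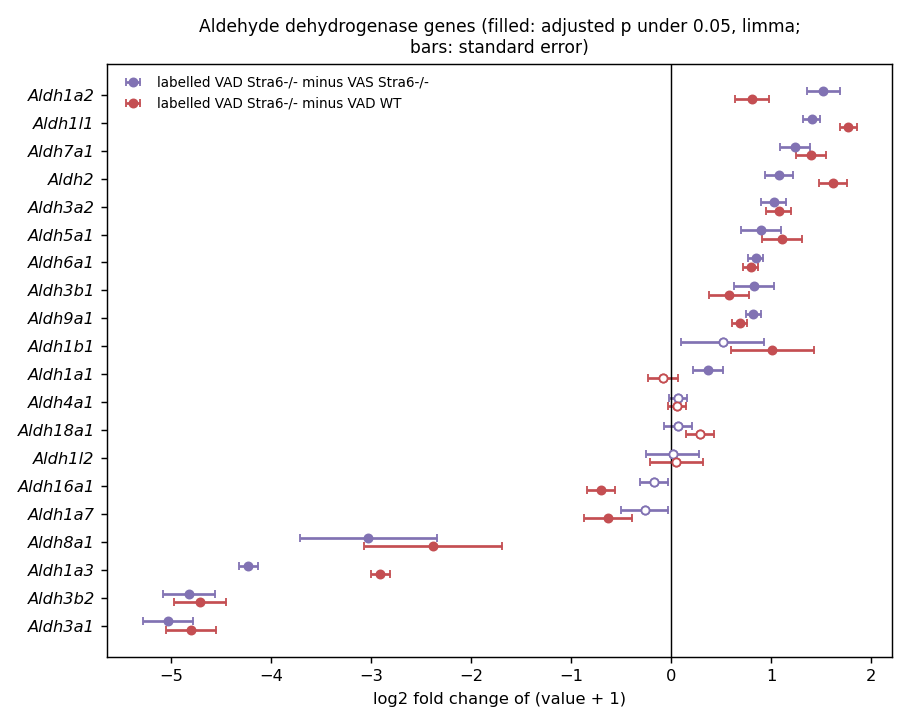
Log2 fold change of (value + 1), with limma's standard error, of *Aldh3a1*, *Aldh2* and 18 other aldehyde dehydrogenase genes in the libraries labelled VAD *Stra6*-/- against 2 groups; filled points passed an adjusted p under 0.05. *Aldh3a1*, *Aldh3b2*, *Aldh1a3* and *Aldh8a1* lie below −2, and *Aldh2* lies at 1.08 and 1.62 among the genes that rose.

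The pentose phosphate pathway, in which TKT works, was covered by 11 other genes. Against VAS *Stra6*-/-, 2 rose and 4 fell (median −0.05), and against VAD WT 1 rose and 3 fell (median 0.04), or 1 and 4 without VAD WT replicates 2 and 4 (median −0.11). *G6pdx*, the entry enzyme, fell by 1.55 and 1.33, and *Rpia*, which makes the ribose 5-phosphate that TKT uses, fell by 1.35 and 1.07. *Taldo1*, the transaldolase that shares TKT's non-oxidative branch, differed by 0.06 and 0.19 without passing (adjusted p = 0.671 and 0.173, limma), at a mean of 7328 in the libraries labelled VAD *Stra6*-/- and 6997 in VAS *Stra6*-/-. None of the 11 passed in VAS *Stra6*-/- or in VAD WT against VAS WT, but without VAD WT replicates 2 and 4, 3 rose and 1 fell in the latter, *G6pdx* by 0.38 and *Rpia* by 0.32 among those that rose. The transketolase-like genes *Tktl1* and *Tktl2* had 18 and 8 reads in all.

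Of the genes whose relatives serve as crystallins in some animals, 10 others were tested, of which *Aldh1a1* and *Aldh1a7* are also in the aldehyde dehydrogenase list. Against VAS *Stra6*-/-, 5 rose and none fell (median 0.38), among them *Cryz*, zeta-crystallin or quinone reductase, by 1.74 and *Ldhb*, a lactate dehydrogenase subunit, by 1.62. Against VAD WT 3 rose and 1 fell (median 0.13), with *Ldhb* up by 2.21; without VAD WT replicates 2 and 4, 5 rose and 3 fell (median 0.28). *Gapdh* and *Gsn*, gelsolin, differed by 0.02 and 0.07 against VAS *Stra6*-/- and did not pass.

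A list of 9 genes held aldehyde and carbonyl reductases, together with the esterase gene *Esd* and the glutathione reductase gene *Gsr*. Of the 9, 4 rose and 2 fell in each comparison of the libraries labelled VAD *Stra6*-/-. Against VAS *Stra6*-/-, *Esd* (0.26) and *Gsr* (0.42) were among those that rose. The 2 that fell were *Cbr2*, at −4.70 and −4.30, and *Akr1b7*, at −4.57 and −4.64. *Akr1a1*, aldehyde reductase, rose by 0.59 and 0.66. The retinol dehydrogenases of the short-chain class, which share substrates with ADH1 and ADH7, were 15 in number, of which 7 rose and 4 fell against VAS *Stra6*-/- and 9 rose and 4 fell against VAD WT. Without VAD WT replicates 2 and 4, the counts against VAD WT were 3 higher and 2 lower for the list of 9 and 9 and 4 for the retinol dehydrogenases.

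The genes whose pattern over the 20 libraries was most like each member were named by Pearson's r of log2(value + 1) among 12299 genes with a mean of at least 100. The libraries form clusters by group, so r is a description with no test, and it is also given over the 15 libraries without the group labelled VAD *Stra6*-/-. Those 15 still hold the split inside VAD WT, which every member except *Adh5* showed. The part of that split in r was not tested. *Aldh3a1* was closest to *Krt12* (r = 1.00 over 20 and 0.995 over 15 libraries), *Krt5* (0.999 and 0.987) and *Anxa8* (0.999 and 0.996). *Tkt* was closest to *Ces1d* (0.996 and 0.989), *Lrig1* (0.995 and 0.976) and *Plp2* (0.991 and 0.979). *Adh1* was closest to *Calml3*, *Akr1b7* and *Psca*, each at 0.997 or above over 20 libraries and 0.939 to 0.982 over 15. *Adh7* was closest to *Plekha6* (0.997 and 0.944), *Psca* (0.997 and 0.965) and its neighbour *Adh1* (0.996 and 0.892). *Psca*, close to both *Adh1* and *Adh7*, is 1 of the 6 conjunctival epithelium genes. The summed level of these 6 had a mean of 140725 in VAS WT and 110912 in VAS *Stra6*-/-. The members were not set against that list.

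*Aldh2* was closest to *Lman1* (0.995 and 0.977), *Ahcyl2* (0.993 and 0.974) and *Pmp22* (0.992 and 0.968). For *Adh5* the likeness rested on 1 group: *Wls*, *Fads1* and *Pgrmc1* had r of 0.989, 0.985 and 0.983 over 20 libraries and 0.464, 0.399 and 0.382 over 15. Between members, *Aldh3a1* and *Tkt* had r of 0.968 over 20 and 0.970 over 15 libraries, and *Aldh2* and *Adh7* −0.957 and −0.929.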

How the data were processed

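RNA-seq of mouse RPE–choroid was analysed in 20 libraries, 5 per group. Per the submitters' processing notes, the tools were STAR 2.5.3a, RSEM 1.2.30 and DESeq2 1.32.0, and the build GRCm38 (mm10). The deposited values are a signal: gene counts divided by 1 size factor per library. Normalized values depend on that factor, so levels are relative. Values were whole multiples of 1 step in all 20 libraries (relative tolerance 1e-06), and the step gave depth, read shares and the read filter. For replicate 1 labelled VAD *Stra6*-/- the step lies near 1, so that whole reads were claimed for the other 19 only and it was kept out of count tests.

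The main test was limma 3.58.1 (R 4.3.3) with trend on log2(value + 1), 4 group means over all 20 libraries, and Benjamini-Hochberg adjustment over 18807 genes with at least 5 reads in all. A log2 fold change beyond 2 was a second rule. A fold change on this scale understates changes of low genes. Members were set against 12 corneal genes by exact permutation tests (scipy 1.17.1). Alternatives were TMM scaling, edgeR 4.0.16 and DESeq2 1.42.0 on recovered reads, pseudocounts of 0.5 and 4, other filters, only the groups compared, a replicate block, other corneal references and leaving out libraries. The scripts were tested on simulated data.

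The genes named are the 6 members, the gene lists, the 3 genes most like each member, and *Stra6*, *Xist* and *Ddx3y*. Members and lists were chosen with earlier results of these data known. Other lists, of 6 genes each, are given in the report where they touch another comparison; in the libraries labelled VAD *Stra6*-/- against VAS *Stra6*-/- they gave conjunctival epithelium 6 lower, lens 2 higher and 1 lower, rod photoreceptor 3 lower, skeletal muscle 2 lower and choroidal endothelium 3 higher. Gene positions are GENCODE on GRCm38 and promoters RefSeq GRCm38.p6.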

Additional observations from a re-analysis of the deposited data

Results flagged for a closer look

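The diet difference between the libraries labelled *Stra6*-/- departed from that between the libraries labelled WT for all 6 enzymes, as tested by the interaction term of genotype and diet in limma, which 44.2% of all genes passed. On the log2 scale the interaction was −5.35 for *Aldh3a1* (adjusted p = 7.80e-11), −4.72 for *Adh7* (adjusted p = 9.67e-12), −3.57 for *Adh1* (adjusted p = 3.25e-10) and −3.10 for *Tkt* (adjusted p = 1.23e-06). It was 1.07 for *Adh5* (adjusted p = 2.62e-09) and 1.24 for *Aldh2* (adjusted p = 2.96e-05). The term contains the libraries labelled VAD *Stra6*-/-, which, without adjustment for RPE content, lacked the low *Stra6* level of VAS *Stra6*-/-. It also contains VAD WT, whose replicates 1, 3 and 5 held *Stra6* of 669 to 697 and whose replicates 2 and 4 stood apart. Without those 2 libraries all 6 still passed, from −5.92 for *Aldh3a1* to 1.58 for *Aldh2*. No library was an outlier by Dixon's test in any of the 24 sets of 5 values. That test looks for 1 extreme value and cannot flag 2 libraries that sit together, as VAD WT replicates 2 and 4 did.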

How the results depend on the processing

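In the comparisons of the libraries labelled VAD *Stra6*-/- and in the interaction, all 6 enzymes kept their direction and passed in every alternative run except the added rule of a log2 fold change beyond 2, which left 4. With that rule, genes passing numbered 1707 (against VAS *Stra6*-/-), 1952 (against VAD WT), 1960 (interaction), 207 (VAS *Stra6*-/- against VAS WT) and 77 (VAD WT against VAS WT). With only the groups compared in the fit, the last 2 counts were 8208 and 639, beside 5010 and 1652, and without VAD WT replicates 2 and 4 together 7524 and 7124.

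In VAS *Stra6*-/- against VAS WT, the number of the 6 passing was 1 with DESeq2 (5455 genes in all), 1 with a filter at a mean of 10 (5137 genes), 5 with only the groups compared, 5 without VAD WT replicates 2 and 4, and 0 to 2 with single replicates left out. For VAD WT against VAS WT the number was 1 with DESeq2 (2141 genes in all), 5 without VAD WT replicates 2 and 4 together, and 0 to 2 with single replicates left out, with 1260 to 2651 genes passing overall. There *Adh1* turned from −0.04 to 0.063 with edgeR, 0.062 with DESeq2 and 0.42 without replicates 2 and 4, and ranged from −0.16 to 0.14 with single replicates left out. *Adh5* turned from 0.00 to −0.0072 without replicates 2 and 4 and ranged from −0.036 to 0.038 with single replicates left out.

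Relative to *Krt12* alone, VAD WT against VAS WT was −0.16 for *Adh7*, −0.22 for *Aldh3a1* and 0.033 for *Tkt*, VAS *Stra6*-/- against VAS WT was −0.21 for *Aldh3a1* and −0.23 for *Tkt*, and labelled VAD *Stra6*-/- against VAD WT was 1.54 for *Adh7* and 1.61 for *Aldh3a1*. Relative to *Krt5* and *Krt14*, labelled VAD *Stra6*-/- against VAS *Stra6*-/- was 0.0028 for *Adh7* and −0.69 for *Aldh3a1*, against VAD WT −1.25 and −1.18, and *Tkt* in VAS *Stra6*-/- against VAS WT was −0.012. Without VAD WT replicates 2 and 4, VAD WT against VAS WT was 0.10 for *Adh7*, 0.13 for *Aldh3a1* and 0.49 for *Tkt*, and *Tkt* in labelled VAD *Stra6*-/- against VAD WT was 2.29; 3 against 5 libraries limit these p. With single replicates left out, *Aldh3a1* ranged from 0.031 to 0.059 in VAS *Stra6*-/- against VAS WT and from 0.11 to 0.23 in labelled VAD *Stra6*-/- against VAD WT. The cause of these shifts was not tested.

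The replicate numbers did not pair the samples: same-numbered libraries had correlations of −0.069 to 0.065 in their deviations from group means. With a replicate block, 4820, 1446, 9937, 10423 and 8193 genes passed in the 4 comparisons and the interaction, and the block changed no call of the 6 enzymes.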
